A study of Mus musculus with 2 samples.

Results

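Ubiquitin-specific proteases (USPs) were followed in spermatogonial progenitor cells of mice with and without Dnmt3l. Genes were taken by symbol, as Usp followed by a number and at most an l or x (such as Usp9x), and 47 of the 23297 genes named in the data met the rule, which leaves out 2 symbols of this form that are not analysed here. Of these, 44 reached 1 FPKM in at least 1 library and were compared, as were 13817 genes in all. FPKM scales fragments by transcript length and library size, so levels of different genes can be set side by side on this scale. Testes of C57BL/6 mice, taken 8 days after birth, gave the cells. There was 1 library of Dnmt3l knockout cells and 1 library of wild-type cells, and poly(A) RNA was sequenced in both. Dnmt3l encodes a partner of the DNA methyltransferases DNMT3A and DNMT3B that has no enzyme activity of its own, and the series title names its role in quiescence of these cells. How the knockout allele was made, how the cells were purified and how many mice gave each library are not given in the sources used here. With 1 library per genotype there was no replicate check and no test, and every difference describes these libraries.

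Ubiquitin is a small protein that cells attach to other proteins to mark them for destruction by the proteasome, for sorting or for signalling. USPs form the largest family of deubiquitinases, the enzymes that take ubiquitin off again. They are cysteine proteases whose catalytic cysteine lies in a conserved stretch, the cysteine box, at the start of the catalytic domain. Individual members act on histones, DNA repair proteins, cell cycle regulators, receptors or ubiquitin chains, and several are large proteins made from long transcripts. In the testis, Usp26 is an X-linked gene expressed in germ cells, and Usp9x and its Y-linked copy Usp9y have been studied in spermatogenesis.

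The cysteine box carries the codon on which the later account of truncated models turns, so its 51 coding bases are printed for 12 genes, from the GENCODE M21 transcripts and coding annotation of the GRCm38 build, 5′ to 3′ on the coding strand with the cysteine codon in capitals. The first 5 are the genes with the largest differences between the libraries, the next 5 had part or all of their knockout level in models without this codon, and the last pair are the X- and Y-linked copies of Usp9.
Usp34: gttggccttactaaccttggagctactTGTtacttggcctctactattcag
Usp24: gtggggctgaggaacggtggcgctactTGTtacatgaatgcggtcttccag
Usp33: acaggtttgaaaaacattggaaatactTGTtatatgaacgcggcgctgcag
Usp44: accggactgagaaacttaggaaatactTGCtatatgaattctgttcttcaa
Usp21: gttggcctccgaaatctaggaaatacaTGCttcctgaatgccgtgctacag
Usp8: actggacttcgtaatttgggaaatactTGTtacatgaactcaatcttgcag
Usp22: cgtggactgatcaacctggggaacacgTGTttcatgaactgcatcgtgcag
Usp32: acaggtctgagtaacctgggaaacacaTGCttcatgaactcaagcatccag
Usp53: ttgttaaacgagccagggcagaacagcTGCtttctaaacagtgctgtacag
Usp54: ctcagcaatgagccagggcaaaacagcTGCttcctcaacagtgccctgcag
Usp9x: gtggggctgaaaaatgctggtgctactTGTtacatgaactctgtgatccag
Usp9y: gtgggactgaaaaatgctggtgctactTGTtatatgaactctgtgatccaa
The codon was found for 44 of the 47 members and for Usp9y. It was TGC in 26 of these genes and TGT in 19, and no match to the searched pattern was found for Usp39, Usp40 and Usp47. In the genome it lay at chr11:23426724-23426726 for Usp34, chr2:126751101-126751103 for Usp8 (both plus strand) and chr14:20607103-20607105 for Usp54 (minus strand), each within an exon.

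Dnmt3l itself had 0 FPKM (upper bound 0) in the knockout library and 1.67 FPKM (0.79 to 2.68) in the wild-type library. The files hold no read counts, which leaves the depth unknown, and coverage per FPKM was 1.10 times as high in the knockout as in the wild-type library. All 8 spermatogonial markers examined were measured, with a summed level of 949.1 FPKM in the knockout and 1134.9 FPKM in the wild-type library, of which Uchl1 made up 465.6 FPKM in the knockout and 509.0 FPKM in the wild-type library. By summed FPKM these markers differed in direction, with log2 ratios of -1.71 for Kit, -0.97 for Zbtb16 and 0.80 for Gfra1. Gfra1 was not higher along its whole transcript. Its 5′ end stood at 13.86 in the knockout and 27.3 in the wild-type library. Its 3′ end stood at 48.52 in the knockout and 27.45 in the wild-type library. The Gfra1 ratio was 0.342 averaged over its exon bases and -0.014 in RefSeq transcripts alone. Sall4 was at 0.251 by its sum and -0.242 averaged over its exon bases. Markers of other testis cells were measured too. Their summed levels were 814.5 FPKM in the knockout and 416.1 FPKM in the wild-type library for 8 macrophage genes, of which Cd68 was listed at 0 in the knockout library alone. For 8 Sertoli genes the sums were 658.9 FPKM in the knockout and 281.7 FPKM in the wild-type library. For 6 Leydig genes they were 135.7 FPKM in the knockout and 60.5 FPKM in the wild-type library, with Star at 0 in both. For 6 endothelial genes they were 128.6 FPKM in the knockout and 63.6 FPKM in the wild-type library, and for 4 peritubular genes 271.7 FPKM in the knockout and 181.8 FPKM in the wild-type library. For 6 spermatid genes they were 11.2 FPKM in the knockout and 4.3 FPKM in the wild-type library, with Prm2 and Acrv1 at 0 in both. USP genes are expressed in many cell types, and the part of these markers in the differences below was not tested. In bulk RNA, fewer cells of a type and less RNA per cell cannot be told apart.

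The family was lower on balance in the knockout library, while most genes were higher there. Of the 44 USP genes compared, 28 were lower (34.0% of all genes were) and 16 were higher (66.0% of all genes were). At least 2-fold lower, on the scale of log2(FPKM + 1), were Usp34, Usp24, Usp33 and Usp44, that is 4 of 44 or 9.09%, against 3.5% of all genes. Usp44 was listed at 0 in the knockout library, which can be a failed estimate, and 3 of the 43 members above 0 in both libraries were at least 2-fold lower. Usp21 alone was at least 2-fold higher, 2.27% of the members against 7.67% of all genes. At a limit of 1.5-fold, 9 members (20.5%) were lower, against 9.01% of all genes, and 1 (2.27%) was higher, against 22.7%. Deposited bounds describe the estimate within a library and not the spread between mice. They were summed here over the transcripts and models of a gene, so they are not an interval estimated for the gene. The summed bounds did not overlap for 20 of the lower members and 7 of the higher ones, 45.5% and 15.9% of the family, against 16.1% and 35.5% of all genes. The median log2 ratio, knockout over wild-type, was -0.23 for the members and 0.22 for all genes. The median gene of 1 FPKM or more in both libraries stood at 0.20, and relative to it the USP median was -0.43. Relative to it 5 members were at least 2-fold lower, the fifth being Usp9x, and none was at least 2-fold higher, against 5.41% and 4.87% of all genes. At the exon level, the mean over all annotated exon bases of the summed FPKM of models on either strand that cover each base, 4 members were at least 2-fold lower and none higher, against 2.95% and 4.86% of all genes. At 1.5-fold, 11 members were lower and 1 was higher on that level, against 8.66% and 17.0% of all genes.

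**Figure D1:**
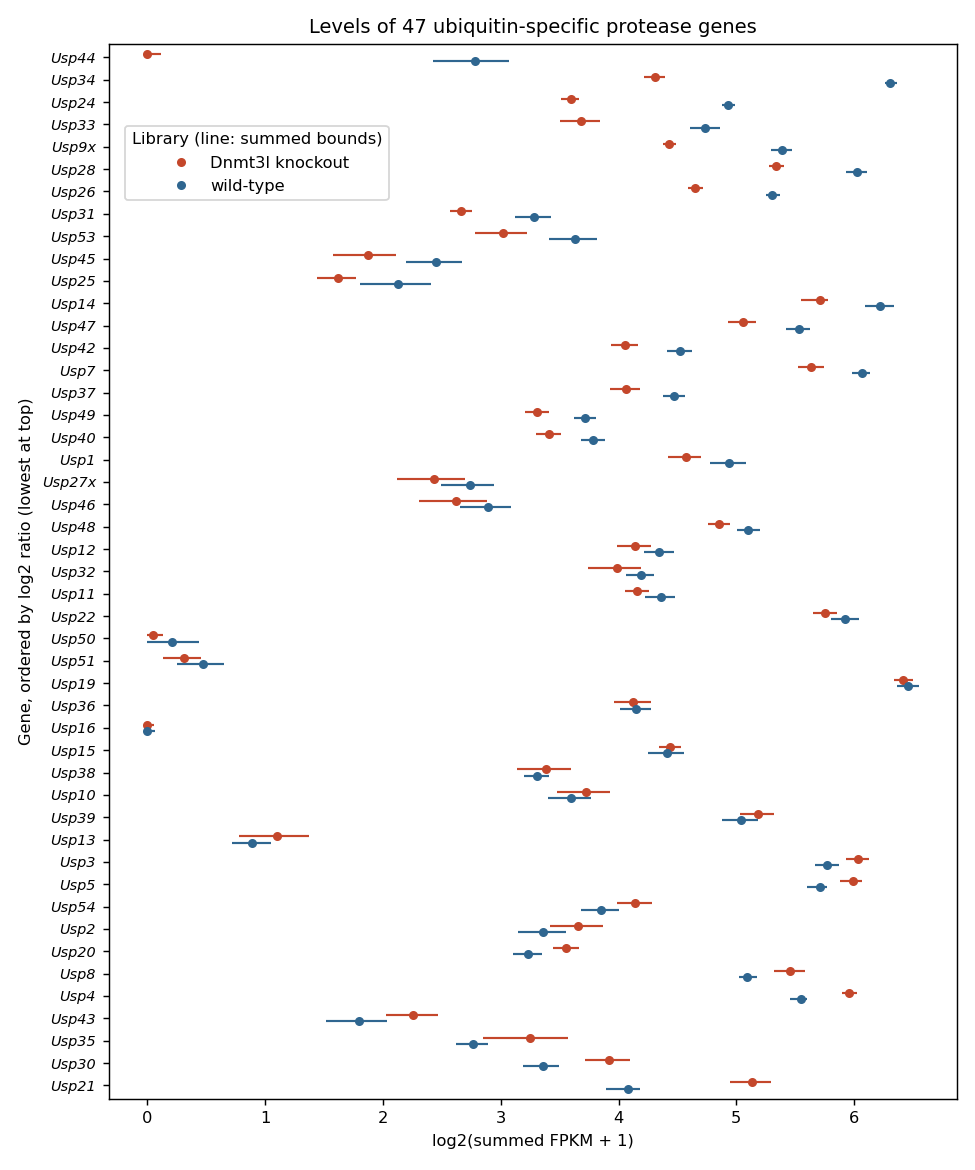
Level of each of the 47 USP genes as log2(summed FPKM + 1), in the Dnmt3l knockout library (red, above) and the wild-type library (blue, below), with lines for the summed deposited bounds and genes ordered by their ratio. The wild-type point lies right of the knockout point for the genes in the upper part, from Usp44 and Usp34 on, and Usp21 at the bottom has the largest difference the other way.

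The 5 most abundant members of the knockout library were Usp19 at 84.3 FPKM, Usp3 at 64.5, Usp5 at 62.6, Usp4 at 61.3 and Usp22 at 53.0. In the wild-type library they were Usp19 at 86.8 FPKM, Usp34 at 77.8, Usp14 at 73.5, Usp7 at 65.9 and Usp28 at 64.0. Usp19 thus led in both libraries, and Usp34 was second in the wild-type library and eighteenth in the knockout library. Apart from Usp44, listed at 0 in the knockout library, Usp13 was the least abundant member that passed the filter, at 1.15 FPKM in the knockout and 0.848 FPKM in the wild-type library, and Usp51 was the member nearest below it, at 0.244 FPKM in the knockout and 0.388 FPKM in the wild-type library.

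Usp34, whose product acts on axin in the Wnt pathway, had the largest difference among members above 0 in both libraries. Its 80 exons lie at chr11:23306895-23490560 on the plus strand of mm10. It stood at 18.8 FPKM in the knockout library (bounds 17.6 to 20.1) and at 77.8 FPKM in the wild-type library (75.6 to 81.3), a log2 ratio of -1.99. The listed RefSeq transcript, of 12200 nt, went the other way, at 8.93 FPKM in the knockout library and 0 in the wild-type library. The remaining level came from assembled models, a model of 80 exons at 9.91 FPKM in the knockout library, and models of 71 and 79 exons at 48.0 and 29.8 FPKM in the wild-type library. All of these models ended at the same base, 23488634, short of the annotated 3′ end, and they held the cysteine codon. At the exon level, which includes models of the opposite-strand gene Ahsa2, Usp34 stood at 26.4 in the knockout and 68.4 in the wild-type library. Over the first 1000 nt it stood at 18.8 in the knockout and 39.9 in the wild-type library. Over the last 1000 nt the levels were 61.1 in the knockout and 44.3 in the wild-type library, but these bases lie within the 2137 exon bases that Usp34 shares with Ahsa2 on the other strand, itself at 52.2 FPKM in the knockout and 44.3 FPKM in the wild-type library. Models on the Usp34 strand alone gave 8.93 in the knockout and 0 in the wild-type library over these bases. The protocol marks no strand, so reads of the last exon cannot be divided between both genes, and the lower Usp34 level was measured upstream of it.

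Usp24 and Usp33 had no assembled model in either library. Their exon and end levels therefore repeat the estimates of their RefSeq transcripts and do not measure coverage along the gene. Usp24 (chr4, plus strand) encodes a very large USP from a transcript of 68 exons and 10601 nt. It was at 11.1 FPKM in the knockout library (10.4 to 11.7) and 29.5 FPKM in the wild-type library (28.5 to 30.8), a log2 ratio of -1.34. Its transcript was marked as fully supported by reads in the wild-type library and not in the knockout library. Usp33 (chr3, plus strand), a USP known to bind the VHL protein and to act on the receptor ROBO1, was at 11.8 FPKM in the knockout library (10.3 to 13.3) and 25.7 FPKM in the wild-type library (23.3 to 28), with a log2 ratio of -1.06. Its paralog Usp20 went the other way, at 10.8 FPKM in the knockout library (9.90 to 11.7) and 8.40 FPKM in the wild-type library (7.61 to 9.19), also without an assembled model. Both pairs of bounds were apart, in opposite directions.

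Usp44, a protease of histone H2B and a regulator of the mitotic checkpoint, was listed at 0 FPKM in the knockout library and at 5.88 FPKM in the wild-type library (4.37 to 7.42). It lies at chr10:93831555-93858087 on the plus strand. The wild-type level was made up of a RefSeq transcript of 7 exons at 2.89 FPKM and assembled models at 1.29 and 1.71 FPKM. Both RefSeq transcripts were at 0 in the knockout library, with upper bounds of 0.0443 and 0.0381 FPKM, although the files mark both as fully supported by reads there. A listed 0 can be a failed estimate, so no fold is given. Usp44 was the only member at 0 in the knockout library alone, 2.27% of the members against 1.32% of all genes. Its paralog Usp49, which also acts on H2B, was at 8.93 FPKM in the knockout library (8.26 to 9.63) and 12.1 FPKM in the wild-type library (11.3 to 13).

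A further 5 members were between 1.5-fold and 2-fold lower, all with bounds apart. Usp9x, which acts on SMAD4 and MCL1 among others, was just short of 2-fold, at 20.5 FPKM in the knockout library (19.8 to 21.5) and 40.8 FPKM in the wild-type library (38.2 to 43.4), a log2 ratio of -0.96. Its knockout level lay wholly in the RefSeq transcript of 11902 nt, a transcript with 15.9 FPKM in the wild-type library, where 3 assembled models of 7.08, 9.01 and 8.84 FPKM made up the rest. The RefSeq transcript alone therefore gave a ratio of 0.35, higher in the knockout library. At the exon level the values were 20.5 in the knockout and 32.3 in the wild-type library, and at the 5′ end 20.5 in the knockout and 37.1 in the wild-type library. At the 3′ end, which the wild-type models did not reach, they were 20.5 in the knockout and 15.9 in the wild-type library.

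Usp28, a protease of MYC and of the DNA damage response, stood at 39.3 FPKM in the knockout library (37.7 to 41.3) and 64.0 FPKM in the wild-type library (60.1 to 68.1). Its exon level was 39.3 in the knockout and 62.6 in the wild-type library, while the RefSeq transcript alone was at 39.3 FPKM in the knockout and 42.5 FPKM in the wild-type library. Its paralog Usp25 was far less abundant, at 2.07 FPKM in the knockout library (1.72 to 2.41) and 3.38 FPKM in the wild-type library (2.49 to 4.30). Both were lower in the knockout library when models were summed, and for both most of the difference lay in assembled wild-type models.

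Usp26, the X-linked member expressed in the testis, was at 24.0 FPKM in the knockout library (23.1 to 25.3) and 38.6 FPKM in the wild-type library (37.2 to 40.3), a log2 ratio of -0.66. The RefSeq transcript, of 9 exons and 4133 nt, was listed at 0 in both libraries. The level came from 1 assembled model of 9 exons in each library, 7012 nt long in the knockout and 7014 nt in the wild-type library, which began at the annotated start, chrX:51801233 on the minus strand, and ran past the annotated 3′ end. Both models held the cysteine codon. With 1 model per library, the level along the gene repeats that of the model. A measure restricted to RefSeq transcripts thus lists Usp26 at 0 in cells where its assembled level was above the median of the compared members, which was 16.1 FPKM in the knockout and 19.4 FPKM in the wild-type library.

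The remaining pair at this limit were Usp31 and Usp53. Usp31 was at 5.34 FPKM in the knockout library (4.94 to 5.74) and 8.74 FPKM in the wild-type library (7.71 to 9.78), with a RefSeq transcript at 5.34 FPKM in the knockout and 5.09 FPKM in the wild-type library. Usp53, known in mice for a mutation that causes hearing loss, was at 7.13 FPKM in the knockout library (5.88 to 8.37) and 11.4 FPKM in the wild-type library (9.66 to 13.1). Usp45, at 2.66 FPKM in the knockout and 4.45 FPKM in the wild-type library with a log2 ratio of -0.58, lay just outside the limit.

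USP transcripts are long, and length moved with the ratio across all genes. The longest RefSeq transcript had a median of 4247 nt over the members and 2750 nt over all genes compared. The median log2 ratio of the 15 members from 2000 to under 4000 nt was 0.15, against 0.20 for 5547 genes of that length. For the 21 members from 4000 to under 6000 nt it was -0.38, against -0.03 for 2426 genes, and for the 4 members from 6000 to under 10000 nt -0.31, against -0.20 for 1153 genes. The 4 members of 10000 nt or more, Usp24, Usp31, Usp34 and Usp9x, had a median of -1.15, against -0.40 for 223 genes. Of these 4, Usp34, Usp24 and Usp9x were among the 5 members with the lowest ratios. After the median of its length bin was subtracted from each gene, the USP median was -0.24 against 0 for all genes, and 4 members (9.09%) were at least 2-fold lower, against 4.07% of all genes, and none was higher, against 4.77%. Usp34 then stood at -1.68, Usp24 at -1.03, Usp33 at -1.06, Usp9x at -0.65 and Usp31 at -0.31. The bin of Usp34, Usp24, Usp9x and Usp31 also holds genes under 10000 nt, and its median was -0.311. That of the 223 genes of 10000 nt or more was lower, so the place of Usp24, near the 2-fold limit, depends on the bin.

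**Figure D2:**
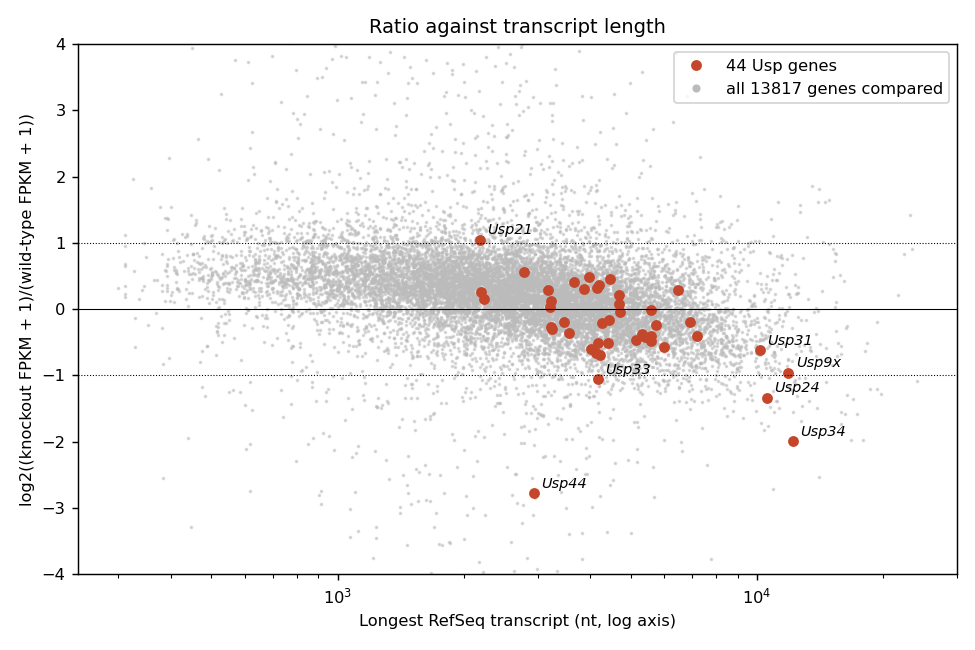
Log2 ratio of knockout over wild-type FPKM (with 1 added) against the length of the longest RefSeq transcript on a log axis, for the 44 USP genes compared (red) and all 13817 genes compared (grey, with 86 genes beyond 4 in either direction not shown). Dotted lines mark 2-fold, labels mark USP genes past it or of 10000 nt or more, and the USP genes lie mostly at longer lengths and below 0, with Usp44 plotted at its listed knockout value of 0.

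Usp21 was the member with the largest difference towards higher values. It removes ubiquitin from histone H2A and stood at 34.0 FPKM in the knockout library (29.8 to 38.2) and 15.95 FPKM in the wild-type library (13.9 to 17.2), a log2 ratio of 1.05. Its RefSeq transcript of 13 exons was at 22.8 FPKM in the knockout and 15.95 FPKM in the wild-type library, a ratio of 0.49. The remaining 11.15 FPKM of the knockout library came from an assembled model of 3 exons at the 3′ end, chr1:171281948-171283125 on the minus strand, which had no counterpart in the wild-type library. At the 5′ end the levels were 22.8 in the knockout and 15.95 in the wild-type library. Relative to the median gene the summed ratio was 0.84, under 2-fold.

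Among the other histone proteases, Usp3, which also acts on H2A, was at 64.5 FPKM in the knockout library (59.96 to 68.9) and 53.7 FPKM in the wild-type library (49.8 to 57.5). Usp22, the H2B protease of the SAGA coactivator complex, was at 53.0 FPKM in the knockout library (49.3 to 56.7) and 59.8 FPKM in the wild-type library (54.8 to 64.8), with overlapping bounds. Its X-linked paralog Usp27x, a gene of 1 exon, was at 4.42 FPKM in the knockout library (3.35 to 5.48) and 5.67 FPKM in the wild-type library (4.64 to 6.69). The 6 histone proteases compared had a median log2 ratio of -0.24. Of these 4 were lower and 2 higher (63.6% of all members and 34.0% of all genes were lower). The group as a whole had a similar sum in both libraries, 164.9 FPKM in the knockout and 153.1 FPKM in the wild-type library.

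Each member was assigned a single role, so counts per role depend on that assignment. All 5 members assigned to DNA repair were lower (63.6% of all members and 34.0% of all genes were). These 5 had a summed level of 113.8 FPKM in the knockout and 162.8 FPKM in the wild-type library, with a median of -0.48. Besides Usp28 and Usp45 these were Usp1, which takes ubiquitin off FANCD2 and PCNA, at 22.7 FPKM in the knockout library (20.5 to 25.0) and 29.6 FPKM in the wild-type library (26.4 to 32.8), and Usp47, which acts on DNA polymerase beta, at 32.2 FPKM in the knockout and 45.2 FPKM in the wild-type library. Usp11, which acts on PALB2, was at 16.8 FPKM in the knockout and 19.5 FPKM in the wild-type library, with overlapping bounds. Of the p53 and MDM2 proteases, Usp7, which stabilises both MDM2 and p53, was at 48.7 FPKM in the knockout library (45.1 to 52.5) and 65.9 FPKM in the wild-type library (62.1 to 69.4). Usp42, a p53 protease, was at 15.6 FPKM in the knockout and 21.9 FPKM in the wild-type library. Usp2, which acts on MDM2 and cyclin D1, was at 11.6 FPKM in the knockout and 9.28 FPKM in the wild-type library, and Usp10, which acts on p53, at 12.2 FPKM in the knockout and 11.1 FPKM in the wild-type library, both with overlapping bounds. The 4 p53 and MDM2 members thus split evenly by their sums. In RefSeq transcripts alone Usp2 was at 7.99 FPKM in the knockout and 9.28 FPKM in the wild-type library. Usp10 was at 7.52 FPKM in the knockout and 9.01 FPKM in the wild-type library on that measure. Both were also lower in the knockout library at the 5′ end.

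Members of receptor sorting and membrane traffic also split, with 4 of 6 lower, near the share of the whole family (63.6%, against 34.0% of all genes). Usp8, which deubiquitinates receptors and sorting proteins at endosomes, was higher, at 43.0 FPKM in the knockout library (39.0 to 47) and 33.1 FPKM in the wild-type library (31.4 to 35.04). Usp12 and its paralog Usp46, both activated by WDR48 and WDR20, were at 16.6 and 5.16 FPKM in the knockout library and 19.3 and 6.43 FPKM in the wild-type library. Usp32, a membrane-bound member, was at 14.8 FPKM in the knockout library (12.4 to 17.3) and 17.2 FPKM in the wild-type library (15.7 to 18.8). Except for Usp33, Usp20 and Usp8, the bounds in this group overlapped.

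The ubiquitin recycling enzymes differed among themselves. Usp14, which sits on the proteasome and trims ubiquitin from its substrates, was at 51.5 FPKM in the knockout library (45.9 to 53.9) and 73.5 FPKM in the wild-type library (67.3 to 79.9). It shares 1870 exon bases with Thoc1 on the other strand, at 35.5 FPKM in the knockout and 22.4 FPKM in the wild-type library, and its 3′ level over both strands was 17.8 in the knockout and 12.1 in the wild-type library. On its own strand the 3′ level was 9.56 in the knockout and 12.1 in the wild-type library, lower in the knockout library like its sum. Usp5, which breaks down free ubiquitin chains, was at 62.6 FPKM in the knockout library (58.0 to 65.9) and 51.2 FPKM in the wild-type library (47.6 to 53.5), while its paralog Usp13 was near 1 FPKM in both. The 3 genes summed to 115.3 FPKM in the knockout and 125.6 FPKM in the wild-type library.

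The paralogs Usp4, Usp15 and Usp11 are close relatives, and Usp4 and Usp15 are known to act on TGF-β receptors and SMADs. Usp4 was higher, at 61.3 FPKM in the knockout library (58.7 to 64.1) and 45.8 FPKM in the wild-type library (43.0 to 47.5). All of it lay in its RefSeq transcript, so its end levels repeat these values. Usp15 was at 20.7 FPKM in the knockout library (19.3 to 22.2) and 20.2 FPKM in the wild-type library (17.99 to 22.5), with overlapping bounds. In the cell cycle group, Usp19, a protease with a form anchored in the endoplasmic reticulum, was at 84.3 FPKM in the knockout library (79.7 to 89.6) and 86.8 FPKM in the wild-type library (81.3 to 92.6). Usp39, a component of the spliceosome, was at 35.3 FPKM in the knockout and 31.8 FPKM in the wild-type library, and Usp36, of the nucleolus, at 16.5 FPKM in the knockout and 16.7 FPKM in the wild-type library, all with overlapping bounds. Usp37, which acts on cyclin A, was at 15.7 FPKM in the knockout library (14.2 to 17.2) and 21.2 FPKM in the wild-type library (19.8 to 22.6). As with Usp34, its RefSeq transcript went the other way, at 8.06 FPKM in the knockout library and 0 in the wild-type library, where models of 24 exons carried all of the level.

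Both members linked to mitochondria were higher by their sum and lower in models that hold the cysteine codon. By summed FPKM 36.4% of all members and 66.0% of all genes were higher. Usp30, on the outer mitochondrial membrane, was at 14.1 FPKM in the knockout library (12.2 to 16.2) and 9.26 FPKM in the wild-type library (8.10 to 10.3). Usp35 was at 8.52 FPKM in the knockout library (6.20 to 10.9) and 5.78 FPKM in the wild-type library (5.15 to 6.42), with overlapping bounds. In models with the codon Usp30 was at 7.51 FPKM in the knockout and 9.26 FPKM in the wild-type library, and Usp35 at 4.21 FPKM in the knockout and 5.78 FPKM in the wild-type library. At the 5′ end Usp30 stood at 8.70 in the knockout and 9.26 in the wild-type library, and Usp35 at 3.22 in the knockout and 5.78 in the wild-type library. The Usp35 paralog Usp38 was at 9.45 FPKM in the knockout and 8.89 FPKM in the wild-type library. The members with less described roles included Usp40 at 9.63 FPKM in the knockout and 12.8 FPKM in the wild-type library and Usp48 at 27.9 FPKM in the knockout and 33.3 FPKM in the wild-type library. They also included Usp43 at 3.78 FPKM in the knockout and 2.48 FPKM in the wild-type library, and Usp54 at 16.7 FPKM in the knockout and 13.4 FPKM in the wild-type library. Of the 10 in that group, 7 were lower and 3 higher (63.6% of all members and 34.0% of all genes were lower).

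The difference between the libraries depended on which end of a transcript was measured. Over the first 1000 nt of the longest RefSeq transcript the USP median log2 ratio was -0.45, against -0.08 for the 9349 genes of 2000 nt or more, and over the last 1000 nt it was -0.06 against 0.11. At the 5′ end 10 members were at least 2-fold lower in the knockout library, 22.7% of 44 against 9.18% of genes. These were Usp22, Usp24, Usp32, Usp33, Usp34, Usp38, Usp42, Usp44, Usp53 and Usp54. At the 3′ end 3 were, Usp24, Usp33 and Usp44, 6.82% against 3.16%. Usp44 enters these end counts through its listed knockout value of 0, which can be a failed estimate. No member was at least 2-fold higher at either end, against 2.66% of genes at the 5′ end and 5.02% at the 3′ end. The 5′ ratio lay below the 3′ ratio by more than 0.1 in 24 members (54.5%, against 42.7% of genes) and above it in 3 (6.82%, against 14.8%). The median of the 5′ ratio minus the 3′ ratio was -0.189 for the members and -0.022 for the 9349 genes. Low 5′ levels, a common sign of lower RNA quality, thus went with the knockout library in more genes than with the wild-type library. The shift of the median gene was small, and the part of low 5′ levels in the USP differences was not tested.

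**Figure D3:**
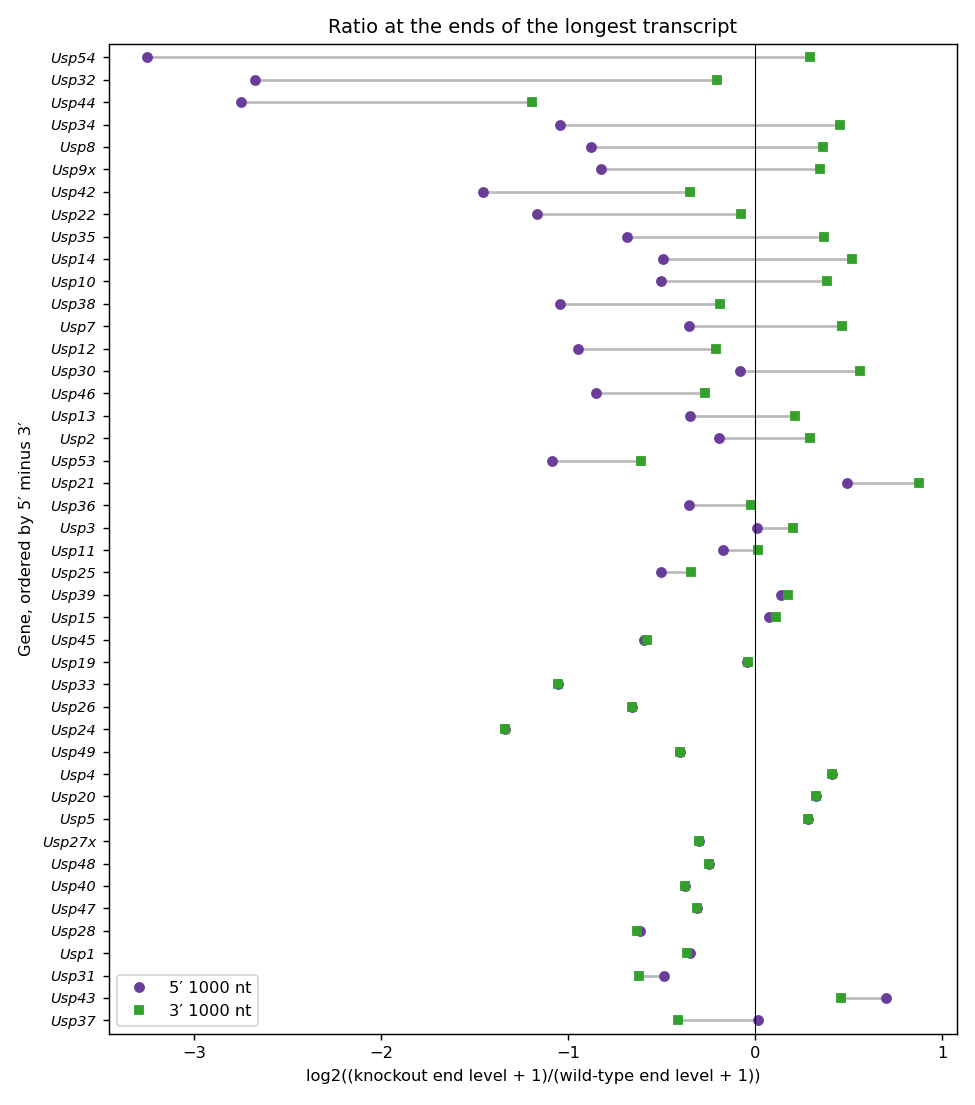
Log2 ratio of knockout over wild-type end levels (with 1 added) over the first 1000 nt (purple circles) and the last 1000 nt (green squares) of the longest RefSeq transcript of the 44 USP genes compared, ordered by the difference. In the genes of the upper part, led by Usp54, Usp32 and Usp44, the 5′ ratio lies left of the 3′ ratio, and in 3 genes at the bottom it lies to the right. Models on either strand are counted, so the 3′ ratios of Usp34 and Usp14 include an overlapping gene. Usp44 is plotted at its listed knockout value of 0, which can be a failed estimate.

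In 12 members the knockout library held assembled models that reached the 3′ end of the gene but not its 5′ end (27.3%, against 22.3% of genes), and in 4 members the wild-type library did (9.09%, against 12.6%). Usp8 is an example. The RefSeq transcript of 19 exons was at 17.6 FPKM in the knockout and 33.1 FPKM in the wild-type library, while a model of 4 exons and 1450 nt at chr2:126754806-126759314 added 25.4 FPKM in the knockout library and had no counterpart in the wild-type library. At the 5′ end Usp8 thus stood at 17.0 in the knockout and 32.1 in the wild-type library, and at the 3′ end at 43.0 in the knockout and 33.1 in the wild-type library, so that its direction changed along the transcript.

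Usp22, Usp32 and Usp54 showed the same form. In the knockout library a model of 3 exons at the 3′ end of Usp22, chr11:61151781-61155953 on the minus strand, was at 32.0 FPKM beside 21.01 FPKM for the RefSeq transcript. In the wild-type library a model of 4 exons there was at 11.3 FPKM, and the RefSeq transcript at 36.1 FPKM. The 5′ end of Usp22 stood at 21.01 in the knockout and 48.5 in the wild-type library, and the 3′ end at 53.0 in the knockout and 55.96 in the wild-type library. Usp32 was at 1.14 in the knockout and 12.7 in the wild-type library at the 5′ end, and at 14.8 in the knockout and 17.2 in the wild-type library at the 3′ end. Models of 22, 19 and 2 exons carried all but 1.14 FPKM of the knockout level. For Usp54 the RefSeq transcript of 21 exons was listed at 0 in the knockout library (upper bound 0.0178) and at 5.89 FPKM in the wild-type library. Models of 4 and 13 exons at its 3′ end were at 10.9 and 5.78 FPKM in the knockout library. Its 5′ end was therefore at 0 in the knockout and 8.53 in the wild-type library, and its 3′ end at 16.7 in the knockout and 13.4 in the wild-type library.

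**Figure D4:**
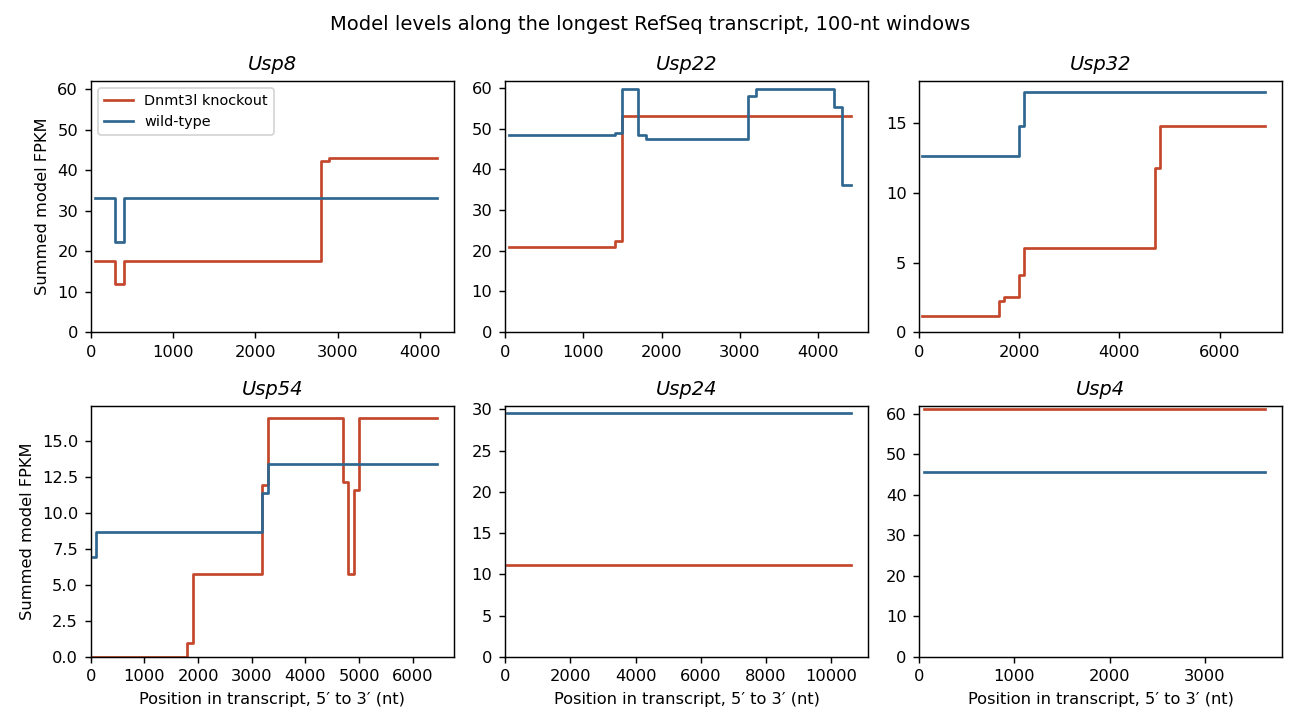
Summed FPKM of all models in windows of 100 nt along the longest RefSeq transcript of 6 USP genes, 5′ to 3′, in the Dnmt3l knockout library (red) and the wild-type library (blue). In Usp8, Usp22, Usp32 and Usp54 the knockout line steps up towards the 3′ end, while in Usp24 (lower throughout) and Usp4 (higher throughout) both lines are flat, and the steps mark where models begin and end, not read coverage.

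The printed cysteine codons allow the levels to be split into models with and without the catalytic cysteine. For the 41 members compared that have one, the median log2 ratio of models with the codon was -0.50, against -0.21 for the sum of all their models. FPKM in models without the codon came to 160.5 of 919.9 FPKM in the knockout library and 25.4 of 1088.8 FPKM in the wild-type library. Under 80% of the level lay in models with the codon for 16 members in the knockout library and for 4 in the wild-type library, namely Usp43, Usp44, Usp53 and Usp54. This measure was made for the members alone, after the end levels had been seen, so no share over all genes stands beside it.

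In Usp8 17.6 of 43.0 FPKM in the knockout library and all of 33.1 FPKM in the wild-type library lay in models with the codon. In Usp22 it was 21.01 of 53.0 FPKM in the knockout and 48.5 of 59.8 FPKM in the wild-type library, and in Usp32 6.06 of 14.8 FPKM in the knockout and all of 17.2 FPKM in the wild-type library. In Usp54 no knockout model held the codon, and 8.70 of 13.4 FPKM did in the wild-type library. The sums of these 4 genes were under 1.5-fold apart, with lower codon-bearing levels in the knockout library. Usp42 had 7.37 of 15.6 FPKM with the codon in the knockout library and all of 21.9 FPKM in the wild-type library, and Usp12 had 6.92 of 16.6 FPKM in the knockout and 16.4 of 19.3 FPKM in the wild-type library. Usp21 was still higher, with 22.8 of 34.0 FPKM in the knockout library and all of 15.95 FPKM in the wild-type library. Usp34, Usp24, Usp33 and Usp9x had all of their level in models with the codon in both libraries. FPKM of a model is an estimate for the whole model, and neither protein nor enzyme activity was measured.

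**Figure D5:**
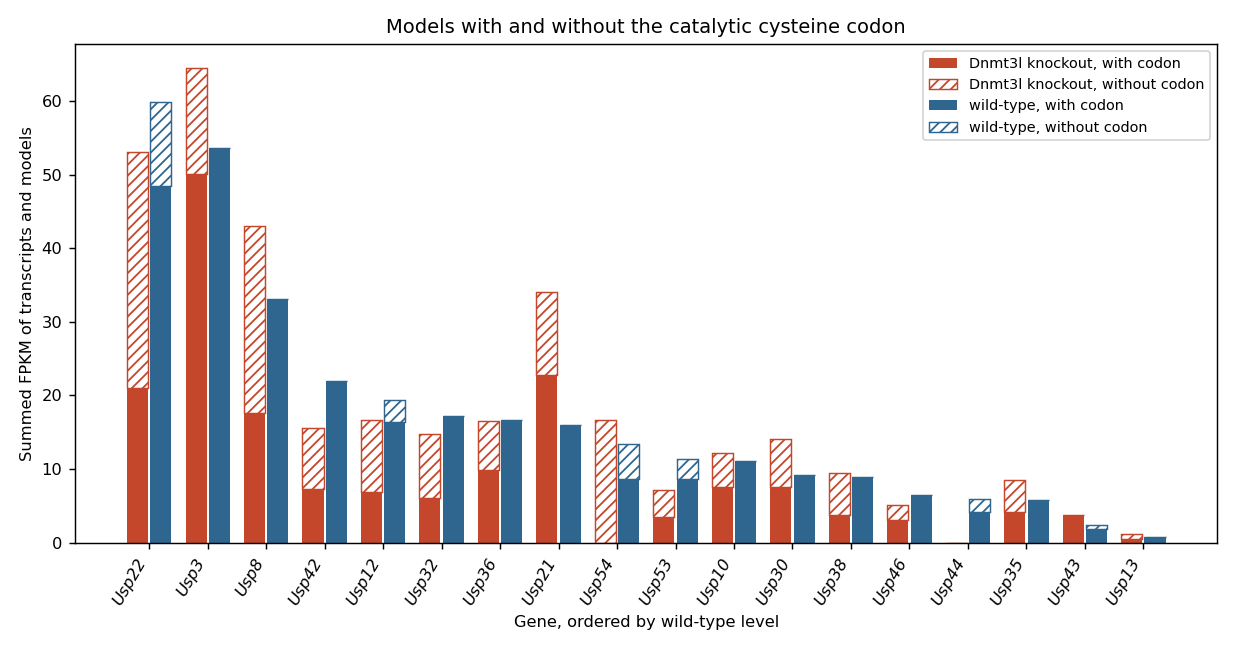
Summed FPKM of transcripts and models with the cysteine codon (filled) and without it (hatched, stacked on top) in the Dnmt3l knockout library (red, left) and the wild-type library (blue, right), for the 18 USP genes with under 80% of their level in models with the codon in at least 1 library. Hatched parts are seen mostly in the knockout bars, and Usp54 has no filled part there.

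In their coding sequences, the paralog pairs examined shared no identical stretch long enough to hold a whole read. Untranslated regions were not compared, nor were matches of a whole read with mismatches. Over the coding sequences of the 14 paralog pairs examined, identity was lowest for Usp11 and Usp15, at 68.1%, and highest for Usp9x and Usp9y, at 83.6%. The longest identical run was 39 nt, in Usp9x and Usp9y, and no pair shared a window of 100 nt, the length of a read. Usp9y, which the symbol rule leaves out, was at 6.31 FPKM in the knockout library (5.42 to 7.22) and 6.03 FPKM in the wild-type library (5.38 to 6.69). Its 5′ level was 1.38 in the knockout and 5.94 in the wild-type library, and its 3′ level 5.64 in the knockout and 7.54 in the wild-type library. The X-linked copy was thus lower in the knockout library and the Y-linked copy similar by its sum, while both were lower at the 5′ end.

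Usp16, Usp50 and Usp51 did not reach 1 FPKM. Usp16, a protease of histone H2A, was listed at 0 in both libraries, with upper bounds of 0.0384 FPKM in the knockout and 0.0450 FPKM in the wild-type library. Its exons share 189 bases with Cct8 on the other strand, a gene with 280.4 FPKM in the knockout and 281.9 FPKM in the wild-type library. The files mark the Usp16 transcript as fully supported by reads in both libraries, so the listed 0 may be a failed estimate and no level is taken from it. Usp50 was at 0.0357 FPKM in the knockout and 0.157 FPKM in the wild-type library.

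Other deubiquitinase families lay nearer to the median gene. Of 39 genes of the OTU, UCH, JAMM, Josephin, MINDY and ZUP1 families 37 were compared, with a median log2 ratio of 0.14, against -0.23 for the USPs and 0.22 for all genes. The family medians ran from -0.061 for the 3 Josephin genes to 0.21 for the 11 JAMM genes. By summed FPKM none of the 37 genes was at least 2-fold different in either direction, against 7.67% and 3.5% of all genes. At the exon level Otud4 was past 2-fold, at -1.016. Its 5′ end stood at 7.086 in the knockout and 49.04 in the wild-type library. RefSeq transcripts alone gave -3.559 for Mysm1, -2.63 for Otud4, -1.344 for Yod1 and -1.009 for Otulin. The other way, they gave 1.643 for Otud7a. No compared USP had a longest transcript under 2000 nt, a class in which the median of all genes was 0.446. The other families include genes of that class, such as Cops5 and Uchl1. The difference between the families was not tested, nor was the part of length in it. The largest ratios by sum belonged to Vcpip1, Otud4, Otub1 and Otud7a. Vcpip1 was at 8.71 FPKM in the knockout and 17.1 FPKM in the wild-type library. Otud4 was at 27.4 FPKM in the knockout and 49.04 FPKM in the wild-type library. Otub1, which blocks ubiquitin-conjugating enzymes, was at 77.4 FPKM in the knockout and 46.4 FPKM in the wild-type library. Otud7a was at 3.48 FPKM in the knockout and 1.90 FPKM in the wild-type library. Uchl1, a deubiquitinase used as a marker of spermatogonia, was at 465.6 FPKM in the knockout and 509.0 FPKM in the wild-type library, above every USP. The median of 11 genes of USP partner proteins and relatives was -0.07. Among them Atxn7 of the SAGA deubiquitinase module was at least 2-fold lower by its sum, at 5.30 FPKM in the knockout and 12.4 FPKM in the wild-type library. Its ratio was -0.91 at the exon level, under 2-fold, and 0 in RefSeq transcripts alone. The next largest ratios by sum were those of Atxn7l2, at 27.7 FPKM in the knockout and 16.5 FPKM in the wild-type library, Dmwd, at 39.6 FPKM in the knockout and 25.5 FPKM in the wild-type library, and Atxn7l1, at 7.22 FPKM in the knockout and 4.998 FPKM in the wild-type library. At the exon level these ratios were 0.645 for Atxn7l2, 0.261 for Dmwd and 0.169 for Atxn7l1. RefSeq transcripts alone gave -0.024 for Dmwd, 3.139 for Atxn7l2 and 0.77 for Atxn7l1. They also gave 2.397 for Atxn7l3 and 1.065 for G3bp1, which stood at -0.037 and -0.066 by their sums. Wdr48, the partner of Usp1, Usp12 and Usp46, was at 32.5 FPKM in the knockout and 39.1 FPKM in the wild-type library. The ubiquitin gene Ubb was at 1442 FPKM in the knockout and 882.1 FPKM in the wild-type library. Of the ubiquitin-activating enzymes Uba1 was at 161.0 FPKM in the knockout and 133.3 FPKM in the wild-type library, and Uba6 at 10.8 FPKM in the knockout and 21.1 FPKM in the wild-type library.

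DNMT3L acts on DNA methylation, which in mammals falls on CG dinucleotides, so the CG content of USP promoters was described, without a measurement of methylation. RefSeq promoter windows (GRCm38.p6, 300 bases around the gene start in that table) were matched for 36 members, and 29 of them held the 5′ end of the transcripts compared here. Usp33, Usp44 and Usp9x were among the members without a window. The motif searched was CG, which reads the same on both strands. The members had a median of 29 CG, from 2 to 63, against 7 over 32851 promoters. Those promoters belong to 27025 genes and were not limited to genes expressed here. In the 29 windows that held the 5′ end of the transcripts compared, the median was 28. At most 5 CG were found in 3 members, Usp26, Usp50 and Usp54, or 8.3%, against 43.6% of all promoters.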

How the data were processed

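Paired-end reads of 100 nt from poly(A) RNA were obtained without a strand-marking step, per the labels' protocols. CASAVA 1.9, TopHat2 2.0.8, Cufflinks 2.1.1 and mm10 appear without settings in the tools listed per the submitters' processing notes. The deposited files give, per RefSeq transcript and per model assembled in that library, an FPKM with bounds, a coverage and other attributes, and the authors' FPKM values were used as deposited. Symbols were given to RefSeq identifiers by accession, by gene name or by exon overlap with GENCODE M21. Same-strand assembled models of 300 nt or more were added to their gene, and both FPKM and bounds were summed per gene. Models of that length without a strand were added where a share of at least 0.5 of their bases lay in its exons. Genes of 1 FPKM or more in at least 1 library were set against each other by the log2 of knockout over wild-type FPKM, with 1 added to both, and counted at 2-fold and 1.5-fold. No test was made, since there was 1 library per genotype, and depth is unknown. Named genes were those at least 1.5-fold different, at 0 in 1 library, among the 5 most abundant of a library, or paralogs; the others are given by role, and other lists by 2-fold members or up to 4 with the largest ratio, with a few added after their values were seen and some not reported here. Members, lists and alternatives were chosen with earlier results of these data known, and the end levels and cysteine codons were added after seeing the data. Python 3.11.15, pandas 2.3.3, numpy 2.4.6, Biopython 1.88 and matplotlib 3.10.9 were used, and the computation was tested on simulated data.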

Additional observations from a re-analysis of the deposited data

How the results depend on the processing

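No paired analysis was possible because there was 1 library per genotype. As reported, 1 member was at least 2-fold higher, 4 were lower, and the median log2 ratio was -0.23. No member was 2-fold higher with a pseudocount of 5, centred on the median gene, scaled to the upper quartile or to a total that leaves out the 50 most abundant genes, at the exon level, with length bins removed or at either end level, so that count was 0 in each. RefSeq transcripts only, and the most abundant RefSeq transcript, each gave 2 higher and 8 lower members, the 5′ end level gave 10 lower, and a limit of 1.5-fold gave 9 lower. A pseudocount of 5, a filter of 10 FPKM, the coverage attribute, the 3′ end level and members above 0 in both libraries each gave 3 lower. Among the 8 lower members 3 were shared with the 4 reported. The median was -0.43 centred, -0.44 scaled to the upper quartile, -0.51 to that total, -0.33 at the exon level, -0.11 with the coverage attribute, -0.49 at the 5′ end and -0.039 at the 3′ end (filtered on the end level). It lay below the median of all genes in every setting run. The Usp34 ratio was 3.31 with RefSeq transcripts only or the most abundant one, and 0.46 at the 3′ end. That of Usp9x, not past 2-fold as reported, was 0.35 in these settings. Usp24 stayed at least 2-fold lower in every setting that recomputed it, and Usp33 in all but the pseudocount of 5, where it was at -0.87, and the coverage attribute. Neither gene had an assembled model, so the RefSeq, exon and end settings repeat the same estimates for them. The end levels were added after seeing the data. Depth is unknown, so no counting interval can be given, and no count of 0 sets a limit.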
